A study of Mus musculus with 7 samples.

Results

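Resident macrophages of the peritoneal cavity keep their identity through a small set of transcription factors. Transcripts of some of them, and of Wt1, a factor of mesothelial and stromal cells, are described here in Tim4+ macrophages sorted from peritoneal fluid. The factors were Gata6, Wt1, Spi1, Cebpa, Cebpb, Cebpd, Bhlhe40, Bhlhe41 and Maf, each taken as the row of the deposited count table that carries its symbol, 9 genes of the 57010 in the table. The samples were 4 libraries from C57BL/6 mice at day 12 after an injection of m204 MTO and 3 libraries from C57BL/6 mice in steady state. The labels do not spell out MTO, while colorectal cancer of the peritoneum stands in the series title, and no genotype beyond the strain and no age is given. The sort used CD11b, Tim4 and MHC class II on living cells, Tim4 being a phosphatidylserine receptor that marks long-lived macrophages, and the purity given for the sort is over 97%.

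GATA6 is a zinc finger factor that large peritoneal macrophages need for their tissue-specific programme, and retinoic acid made by WT1-expressing mesothelial and stromal cells of the mouse peritoneum induces it. PU.1, the product of Spi1, opens myeloid enhancers together with factors of the C/EBP family, whose members C/EBPα, C/EBPβ and C/EBPδ bind the same kind of site and differ in the stages and stimuli at which they act. BHLHE40 and BHLHE41 are related E-box repressors, of which Bhlhe40 has been tied in mice to the division of large peritoneal macrophages, and c-MAF restrains self-renewal of macrophages and drives genes of mature, scavenging cells.

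The libraries held 32077050 to 38586694 counts. Levels are in CPM, counts scaled to library size with TMM factors, and a floor of 3 counts stood for 0.0754 to 0.0958 CPM. Changes are log2 fold changes of day 12 over steady state from edgeR's quasi-likelihood test, with Benjamini-Hochberg adjustment over the 15981 genes that passed a filter on low counts. The sort marker Timd4 itself fell, with 526, 643, 412 and 399 CPM in day 12 replicates 1, 2, 3 and 4, against 965, 882 and 1043 CPM in steady-state replicates 1, 2 and 3 (edgeR adjusted p = 0.00484). Itgam, which encodes CD11b, had 1610 to 2415 CPM at day 12, against 1242 to 1470 CPM in steady state (adjusted p = 0.0160, but 0.0703 and 0.082 without steady-state replicates 1 and 3). H2-Ab1, an MHC class II chain, had 723, 397, 479 and 1120 CPM in day 12 replicates 1, 2, 3 and 4 (adjusted p = 0.00892). In steady-state replicates 1, 2 and 3 it had 89.4, 21.4 and 22.4 CPM, so that replicate 1 stood apart from the others of its group.

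Day 12 replicate 4 stood apart from the other day 12 libraries in a way that followed base composition. In the decile of tested genes with the most GC-rich transcripts (median 59.2% GC), its median deviation from the day 12 mean was 0.42 on the log2 scale, against -0.12 to -0.16 in the other day 12 libraries. In the decile with the lowest GC content (median 39.3%), the deviation was -0.46, against 0.13 to 0.17. The day 12 mean includes replicate 4, which by itself gives the other day 12 libraries deviations of the opposite sign. The steady-state libraries lay between -0.02 and 0.03 in every decile. The C/EBP genes Cebpb and Cebpa have transcripts of 67.2% and 62.6% GC, Spi1 of 58.9% and Gata6 of 55.3%, whereas Cebpd (51.6%), Bhlhe40 (49.4%), Bhlhe41 (47.5%) and Maf (47.4%) lie nearer the middle. For Gata6, Spi1, Cebpa, Cebpb and Cebpd the fold change is therefore given with and without that library, as are the levels per kilobase and the counts of called genes in those lists of relatives and associated genes where they change without it. Day 12 replicate 2 was the day 12 library nearest to steady state. Over the genes tested, its log2 CPM correlated with those of the steady-state libraries at r = 0.957 to 0.9595. For day 12 replicates 1, 3 and 4, r was 0.9309 to 0.938. What set replicate 2 apart was not tested.

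**Figure D1:**
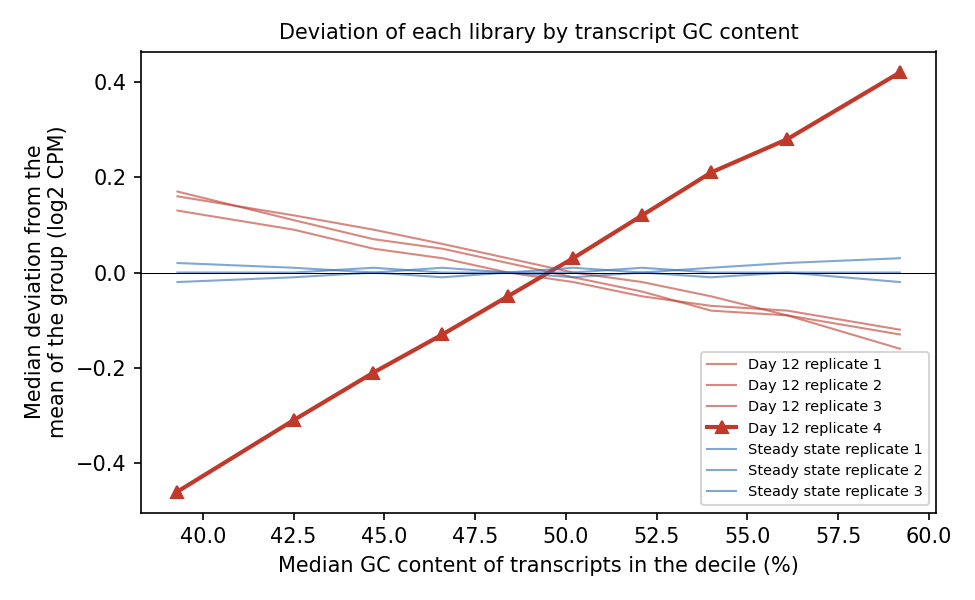
Median deviation of each library from the mean of its group (vertical axis, log2 CPM) in deciles of tested genes ordered by transcript GC content (horizontal axis, median GC in percent). Day 12 replicate 4 (thick line with triangles) runs up from -0.46 at low GC to 0.42 at high GC, the other day 12 libraries (thin red) take the opposite sign because the mean they are set against includes replicate 4, and the steady-state libraries (blue) stay within -0.02 and 0.03.

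Of the 9 factors, 8 passed the filter on low counts, and Wt1 did not. At day 12, Gata6 and Bhlhe40 rose, while Bhlhe41, Cebpa and Maf fell. Spi1, Cebpb and Cebpd did not pass. These 5 calls among 8 tested factors stand beside 20.3% of all genes tested that passed, 10.1% higher and 10.2% lower. Of the called factors, Bhlhe40 was at least 2-fold higher, beside 5.61% of all genes, and Bhlhe41 and Cebpa at least 2-fold lower, beside 4.46%. The groups did not overlap for 6 factors, the 5 that passed and Spi1, beside 35% of all genes. The changes ranged from -5.01 for Bhlhe41 to 1.23 for Bhlhe40 on the log2 scale, while all genes tested had a median of 0.00 and quartiles at -0.28 and 0.30. In bulk RNA, fewer cells with a transcript and less of it in each cell cannot be told apart.

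**Figure D2:**
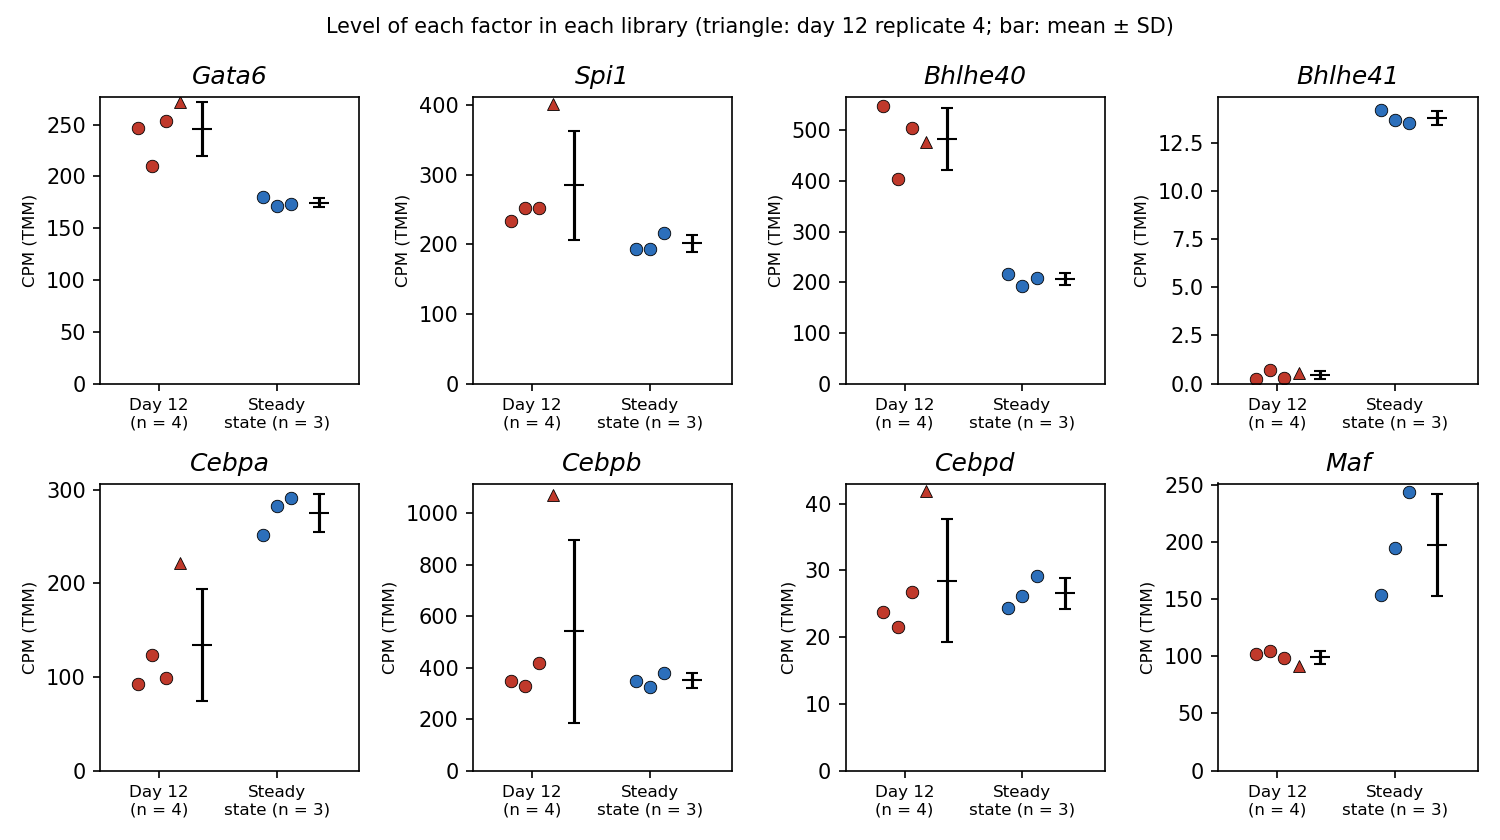
Level of 8 factors in each library (vertical axis, TMM-scaled CPM from 0, with its own scale in each panel) at day 12 (red, n = 4, triangle for replicate 4) and in steady state (blue, n = 3), with mean and SD beside the points. Bhlhe40 lies higher and Bhlhe41, Cebpa and Maf lie lower in every day 12 library, and for Cebpb, Cebpd and Spi1 replicate 4 is the highest of the day 12 libraries.

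Compared per kilobase of exon, the order of the factors differed between the conditions. At day 12, Cebpb led with 360 CPM per kb, ahead of Spi1 (106), Bhlhe40 (103), Cebpa (50.8), Gata6 (37.7), Maf (12.1), Cebpd (7.60) and Bhlhe41 (0.0633). In steady state, Cebpb had 233 CPM per kb, Cebpa 104, Spi1 74.8, Bhlhe40 43.8, Gata6 26.8, Maf 24.0, Cebpd 7.09 and Bhlhe41 2.05. Some neighbours in these orders did not differ beyond their spread. At day 12 the ranges of Spi1 (86.3 to 149 CPM per kb) and Bhlhe40 (85.6 to 117) overlapped, as did those of Cebpa (35 to 84.1) and Gata6 (32.2 to 41.8) and those of Maf (11.1 to 12.8) and Cebpd (5.74 to 11.2). In steady state only Gata6 (26.2 to 27.6) and Maf (18.7 to 29.6) overlapped among the neighbours. Over day 12 replicates 1, 2 and 3 alone, a choice made after the data were seen, Cebpb had 243 CPM per kb, Bhlhe40 103, Spi1 91.2, Cebpa 39.7, Gata6 36.3, Maf 12.4, Cebpd 6.40 and Bhlhe41 0.0585, so that Bhlhe40 then stood above Spi1, with ranges that still overlapped (85.6 to 117 and 86.3 to 93.8). Exon lengths came from GENCODE M21 on the older build, so these levels are approximate.

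Gata6, the factor of the peritoneal programme (ENSMUSG00000005836, GRCm39 chromosome 18, 11052064 to 11085635), had 247, 210, 253 and 272 CPM in day 12 replicates 1, 2, 3 and 4, against 180, 171 and 173 CPM in steady-state replicates 1, 2 and 3. All day 12 libraries lay above all steady-state libraries, with replicate 2 the lowest and replicate 4 the highest of day 12. The log2 fold change was 0.49 (SE 0.11, 95% interval 0.24 to 0.75, edgeR adjusted p = 0.0148), a rise of 1.41-fold. Without day 12 replicate 4 it was 0.44 (adjusted p = 0.00782). The call was lost when any steady-state library was left out, with adjusted p-values of 0.0546, 0.0755 and 0.0747 without replicates 1, 2 and 3 and log2 fold changes of 0.54, 0.47 and 0.48.

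The long non-coding RNA Gata6os runs opposite to Gata6 and shares 873 bases with its start. It had 40.7, 21.9, 44.5 and 29.5 CPM in day 12 replicates 1, 2, 3 and 4, against 15.7, 14.0 and 13.3 CPM in steady-state replicates 1, 2 and 3. Every day 12 library was above steady state, and the rise of Gata6os was 1.25 on the log2 scale (SE 0.23, adjusted p = 0.00528). Whether strand was used in counting is not known, so reads of the shared stretch may have gone to either gene.

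Other GATA factors had few or no reads. Gata1, Gata2, Gata3, Gata4 and Gata5 did not pass the filter on low counts, and Gata2 and Gata5 had no read in any library. Of the GATA family and its cofactors, 4 of 10 genes were tested, of which 0 rose and 2 fell by edgeR (0 rose at an unadjusted p under 0.05 and 0 with limma-voom). All 4 had a log2 fold change below 0. DESeq2, which was run without the filter on low counts, called 1 gene of the list higher. Of all genes tested by edgeR, 10.1% rose and 10.2% fell. The falling genes were Tal1, an erythroid and stem-cell bHLH factor (2.82 to 3.60 CPM at day 12, against 10.5 to 11.8 CPM in steady state, adjusted p = 0.000128), and Lmo2, which bridges TAL1 to GATA factors (24.3 to 49.2 CPM at day 12, against 73.4 to 109 CPM in steady state, adjusted p = 0.00514). Ldb1, their scaffold partner, had 73.6 to 103 CPM at day 12 and 92.9 to 99.6 CPM in steady state and did not pass (adjusted p = 0.5). The falling genes numbered 3 without day 12 replicate 4.

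Genes of the large peritoneal macrophage programme, many of them dependent on GATA6 in mice, moved in both directions. Of 28 tested, 9 rose, 5 fell and 14 did not pass, while 10.1% of all genes tested rose and 10.2% fell. The median log2 fold change was -0.08, beside 0.00 over all genes tested. The genes with the lowest p were Aspa, an aspartoacylase (195 to 253 CPM at day 12, against 47.7 to 58.6 CPM in steady state), the acute-phase gene Saa3 (12726 to 19738 CPM, against 3296 to 4038 CPM) and the annexin gene Anxa5, which fell to 9.46 to 16.3 CPM at day 12, against 81.7 to 115 CPM in steady state. Their edgeR adjusted p-values were 4.85e-05, 0.000173 and 6.86e-05. When day 12 replicate 4 was left out, 10 genes of the list rose and 8 fell. Over all fits with a single library left out, 8 to 10 rose and 4 to 8 fell.

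Wt1, a zinc finger factor of mesothelial and stromal cells (ENSMUSG00000016458, chromosome 2, 104956874 to 105003961), had 2 reads in day 12 replicate 1 and 0 reads in every other library of both groups, which is below the floor of 3 counts. No fold was computed, and a level in these cells was not detectable at this depth. Markers of the cells known to express Wt1 were low as well. The summed level of 12 mesothelial markers was 4.93 to 9.29 CPM at day 12, against 10.1 to 12.1 CPM in steady state (exact permutation p = 0.0571, two-sided, adjusted p = 0.0714 over 10 sums). Nearly all of it came from Krt7, a keratin gene chosen after its values were seen (4.12 to 8.68 CPM, against 10.1 to 11.9 CPM), while Msln, Upk1b and Muc16 had no read in any library. The sum of 12 fibroblast and stromal markers was 1.39 to 3.54 CPM at day 12, against 0.208 to 0.575 CPM in steady state, with Lum and Dpt without a read.

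Of 13 genes of retinoid synthesis and signalling, 6 were tested, of which 1 rose and 1 fell, beside 10.1% and 10.2% of all genes tested. Aldh1a2, which makes retinoic acid from retinal, had 48.2, 34.2, 57.3 and 43.4 CPM in day 12 replicates 1, 2, 3 and 4, against 25.8, 23.4 and 27.8 CPM in steady-state replicates 1, 2 and 3 (log2 fold change 0.84, SE 0.17, edgeR adjusted p = 0.00802). Dhrs3, a retinal reductase, fell by 0.68 on the log2 scale (230 to 285 CPM at day 12, against 375 to 474 CPM in steady state, adjusted p = 0.00496). Without day 12 replicate 3, 2 genes of the list rose.

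Spi1, which encodes PU.1 (ENSMUSG00000002111, chromosome 2, 90912735 to 90946101), had 233, 253, 252 and 402 CPM in day 12 replicates 1, 2, 3 and 4, against 194, 194 and 216 CPM in steady-state replicates 1, 2 and 3. The groups did not overlap, and day 12 replicate 4 lay far above the other day 12 libraries. The log2 fold change was 0.50 (SE 0.19, 95% interval 0.07 to 0.92) and did not pass (edgeR adjusted p = 0.0945). Without day 12 replicate 4 it was smaller but passed, at 0.29 (SE 0.08, adjusted p = 0.0242), and with the trend of each library with GC content removed it was 0.45 (SE 0.09, adjusted p = 0.00521). The log2 ratio of the CPM of Gata6 to that of Spi1 was -0.18 ± 0.29 at day 12 and -0.21 ± 0.10 in steady state (SD, n = 4 and n = 3, exact permutation p = 0.914).

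Among ETS relatives and partners of PU.1, 2 of 14 tested genes rose and 5 fell, beside 10.1% and 10.2% of all genes tested. Irf8, a partner of PU.1 in mononuclear phagocytes, fell to 6.79 to 18.9 CPM at day 12, against 115 to 140 CPM in steady state, and Runx1, which acts upstream of Spi1 in blood development, to 23.7 to 27.0 CPM, against 39.4 to 45.8 CPM. The ETS factor gene Elf4 rose to 143 to 165 CPM at day 12, against 98.8 to 108 CPM in steady state (adjusted p = 0.00267). Without steady-state replicates 1, 2 and 3 the falling genes numbered 3 in each case, and without replicates 1 and 2 the rising ones numbered 1. Leaving out day 12 replicate 4 gave 3 rising and 6 falling genes.

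Myeloid genes with known PU.1-bound promoters or enhancers rose in 8 of 25 cases and fell in 3, beside 10.1% and 10.2% of all genes tested. Their median log2 fold change was 0.14. Cd300lf, a lipid-binding receptor, had 53.7 to 77.9 CPM at day 12, against 5.31 to 6.36 CPM in steady state (edgeR adjusted p = 1.24e-05). Csf2rb, the common beta chain of the GM-CSF receptor, had 483 to 653 CPM at day 12, against 249 to 263 CPM in steady state (adjusted p = 0.00081), whereas the G-CSF receptor gene Csf3r fell to 107 to 196 CPM, against 431 to 447 CPM (adjusted p = 0.00088). The count of rising genes became 4 without steady-state replicate 1 or 3, and that of falling genes 1 without steady-state replicate 1, 2 or 3 or day 12 replicate 3.

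Of the C/EBP genes, Cebpa fell, while Cebpb and Cebpd did not pass the test. Cebpa (ENSMUSG00000034957, chromosome 7, 34818718 to 34821353), which specifies the granulocyte and macrophage lineages, had 92.3, 123, 98.5 and 222 CPM in day 12 replicates 1, 2, 3 and 4, against 252, 282 and 291 CPM in steady-state replicates 1, 2 and 3. Every day 12 library was below every steady-state library, replicate 4 being the closest to them. On the log2 scale the fold change was -1.04 (SE 0.28, 95% interval -1.68 to -0.40, edgeR adjusted p = 0.0314), a level 2.05-fold lower at day 12. Leaving out day 12 replicate 4 gave -1.39 (SE 0.12, adjusted p = 0.000283), and with the GC trend removed -1.12 (adjusted p = 0.000777). The call was lost when any of the other libraries was left out, with adjusted p-values of 0.0819, 0.0894 and 0.0965 without steady-state replicates 1, 2 and 3 and 0.0654, 0.0777 and 0.0567 without day 12 replicates 1, 2 and 3, and with no filter on low counts (0.0858). Fold changes in those fits, in log2, lay between -1.07 and -0.88.

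Cebpb (ENSMUSG00000056501, chromosome 2, 167530835 to 167532338), the form induced by inflammatory signals and required in mice for several resident macrophage populations, had 348, 328, 419 and 1072 CPM in day 12 replicates 1, 2, 3 and 4, against 347, 324 and 380 CPM in steady-state replicates 1, 2 and 3. The other day 12 libraries lay within or just above the steady-state range, and replicate 4 held more than any of them by a wide margin. A log2 fold change of 0.63 (SE 0.42, 95% interval -0.35 to 1.61) did not pass (edgeR adjusted p = 0.340). With day 12 replicate 4 left out it was 0.06 (SE 0.11, adjusted p = 0.702), and with the GC trend removed 0.44 (SE 0.18, adjusted p = 0.109). The gene overlaps Peds1 on the other strand over 908 of its bases, and Peds1 had 95.4, 77.3, 87.2 and 140 CPM in the same day 12 libraries, against 76.7, 82.6 and 83.8 CPM in steady state.

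Cebpd (ENSMUSG00000071637, chromosome 16, 15705150 to 15708895), an acute-phase member of the family and the least abundant of the 3 per kilobase, had 23.7, 21.5, 26.7 and 41.9 CPM in day 12 replicates 1, 2, 3 and 4, against 24.4, 26.2 and 29.1 CPM in steady-state replicates 1, 2 and 3. The groups overlapped. Its log2 fold change was 0.10 (SE 0.22, 95% interval -0.39 to 0.58, adjusted p = 0.787) and had the other sign without day 12 replicate 4 (-0.14, adjusted p = 0.343). Cebpd overlaps Spidr on the other strand over 1808 bases, a gene of 15.3 to 21.5 CPM at day 12 and 19.6 to 25.9 CPM in steady state.

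Within the family, Cebpb held a larger share and Cebpa a smaller one in every day 12 library than in any of steady state. Of the exon-length-corrected level of the 3 genes together, Cebpa made up 12.8%, 17.3%, 11.6% and 10.4% in day 12 replicates 1, 2, 3 and 4, against 28.8%, 32.4% and 29.7% in steady-state replicates 1, 2 and 3. Cebpb made up 80.6% to 88.2% at day 12, against 65.4% to 69.3% in steady state, and Cebpd 1.38% to 2.32%, against 1.96% to 2.12%. The log2 ratio of Cebpb to Cebpa in a library was 1.92 ± 0.37 at day 12 and 0.35 ± 0.13 in steady state (SD, n = 4 and n = 3), a difference of 1.57 with no overlap. It stayed between 1.45 and 1.74 when any library was left out. With 35 ways to split 7 libraries into 4 and 3, an exact permutation test (two-sided) gave p = 0.0571, the smallest it can reach here, and an adjusted p of 0.0714 over 5 ratios.

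**Figure D3:**
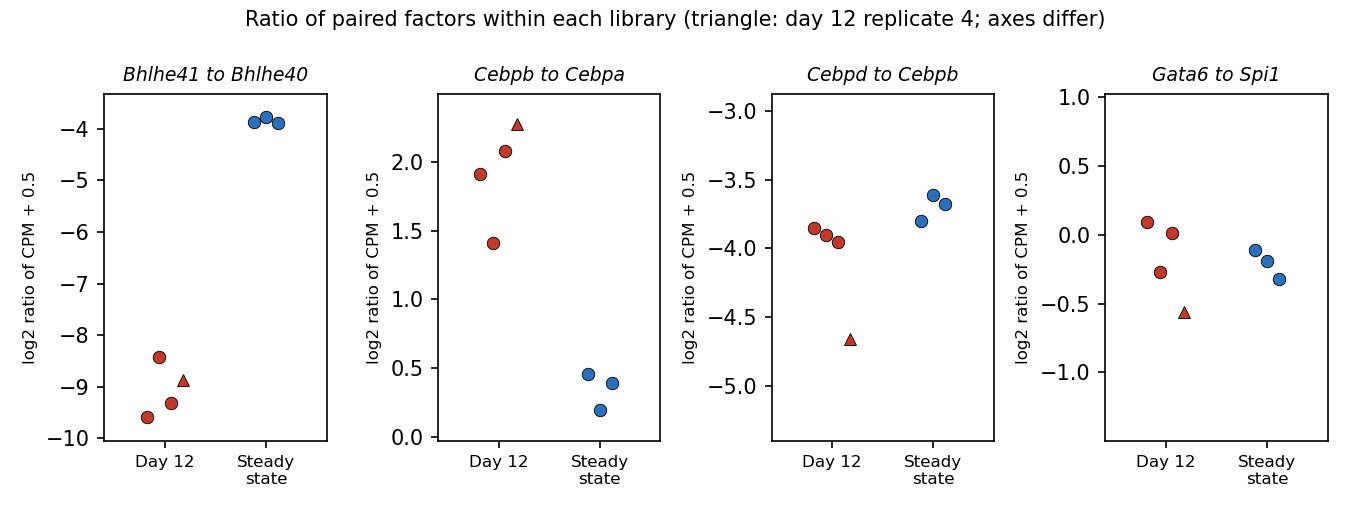
log2 ratio of the CPM + 0.5 of the factors named above each panel within each library (vertical axes differ in position) at day 12 (red, n = 4, triangle for replicate 4) and in steady state (blue, n = 3). The Bhlhe41 to Bhlhe40 ratio is lower and the Cebpb to Cebpa ratio higher in every day 12 library, and the Gata6 to Spi1 ratio overlaps between the groups. The Cebpd to Cebpb ratio is lower at day 12 by a narrow margin (-4.66 to -3.85, against -3.80 to -3.61), with replicate 4 the lowest.

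Among further bZIP relatives and Tribbles regulators, 1 of 9 tested genes rose and 4 fell, beside 10.1% and 10.2% of all genes tested. Nfil3, a repressor induced by cytokines, rose to 121 to 165 CPM at day 12, against 40.6 to 47.6 CPM in steady state (adjusted p = 9.11e-05). Trib2, whose protein promotes the breakdown of C/EBPα, fell to 0.371, 1.28, 0.421 and 0.406 CPM in day 12 replicates 1, 2, 3 and 4, against 6.94, 8.43 and 8.27 CPM in steady-state replicates 1, 2 and 3 (log2 fold change -3.65, adjusted p = 0.000507). Its log2 fold change was -4.26 without day 12 replicate 2. Cebpg, a partner that lacks an activation domain, had 68.2 to 91.0 CPM at day 12, against 126 to 137 CPM in steady state (adjusted p = 0.00311).

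Of 15 tested genes that C/EBP factors are known to activate in myeloid cells, 6 rose and 3 fell. Among all genes tested, 10.1% rose and 10.2% fell. The median log2 fold change of the list was 0.49. With single libraries left out, 4 to 6 of its genes rose and 2 to 3 fell. Besides Saa3, the lowest p-values belonged to the arginase gene Arg1, with 4161 to 6718 CPM at day 12, against 81.1 to 122 CPM in steady state (edgeR adjusted p = 9.15e-06), and the cytokine gene Il6, with 13.1 to 22.7 CPM, against 1.31 to 1.99 CPM (adjusted p = 6.86e-05). The neutrophil granule gene Mpo of this list had no read in any library. Immediate early genes, a group that like Cebpb and Cebpd answers quickly to handling and to stimuli, moved too. Of 18 tested, 12 rose and 3 fell, beside 10.1% and 10.2% of all genes tested. Egr1 had 34.5 to 60.0 CPM at day 12, against 5.77 to 7.89 CPM in steady state, and Fosb 7.84 to 11.6 CPM, against 0.476 to 1.31 CPM. The heat shock gene Hspa1b of the same list, whose near-identical copy Hspa1a can share its reads, fell to 33.7 to 57.2 CPM, against 172 to 243 CPM. With day 12 replicate 4 left out, 14 genes of that list rose and 3 fell. Over all fits with a single library left out, 10 to 14 rose and 3 fell. The part of handling in the levels of the C/EBP genes was not tested.

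The related E-box repressors Bhlhe40 and Bhlhe41 moved in opposite directions. Bhlhe40 (ENSMUSG00000030103, chromosome 6, 108637590 to 108643886) had 549, 403, 504 and 477 CPM in day 12 replicates 1, 2, 3 and 4, against 217, 193 and 208 CPM in steady-state replicates 1, 2 and 3. Every day 12 library held more than any of steady state. Its log2 fold change was 1.23 (SE 0.13, 95% interval 0.94 to 1.52, edgeR adjusted p = 0.000353), a rise of 2.34-fold, and it lay between 1.18 and 1.34 when any library was left out, with the call kept each time.

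Bhlhe41 (ENSMUSG00000030256, chromosome 6, 145803969 to 145811284) had 8, 27, 11 and 18 reads in day 12 replicates 1, 2, 3 and 4, or 0.212, 0.679, 0.289 and 0.522 CPM, against 480, 488 and 422 reads, or 14.2, 13.7 and 13.5 CPM, in steady-state replicates 1, 2 and 3. The steady-state libraries were nearly level and all day 12 libraries were far below them. In log2 the fold change was -5.01 (SE 0.33, 95% interval -5.74 to -4.27, edgeR adjusted p = 4.97e-05), a level 32.1-fold lower at day 12. Of the 15981 genes tested, 12 had a lower log2 fold change, and Bhlhe41 stood at rank 20 by p. The fall lay between -5.30 and -4.77 with any library left out and was -4.99 with the GC trend removed. The log2 ratio of Bhlhe41 to Bhlhe40 was -9.05 ± 0.52 at day 12 and -3.85 ± 0.07 in steady state (SD, n = 4 and n = 3, exact permutation p = 0.0571, adjusted p = 0.0714 over 5 ratios). The 0.5 CPM added to each level is about as large as the day 12 levels of Bhlhe41, so it weighs on that mean and SD. The difference between the groups was -5.2, and it was -6.04 with 0.1 CPM added instead.

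Bhlhe40 and Bhlhe41 proteins bind the palindromic E-box CACGTG, and BHLHE factors are known to act on each other's promoters in mouse and human cells, so the start region of the factor with the lowest log2 fold change is shown. It spans chr6:145865371-145865670 on the minus strand of GRCm38.p6, from 250 bases before to 50 bases after the RefSeq start, which is an older build than that of the count table, and reads 5′ to 3′ with the E-box in capitals.
Bhlhe41 promoter: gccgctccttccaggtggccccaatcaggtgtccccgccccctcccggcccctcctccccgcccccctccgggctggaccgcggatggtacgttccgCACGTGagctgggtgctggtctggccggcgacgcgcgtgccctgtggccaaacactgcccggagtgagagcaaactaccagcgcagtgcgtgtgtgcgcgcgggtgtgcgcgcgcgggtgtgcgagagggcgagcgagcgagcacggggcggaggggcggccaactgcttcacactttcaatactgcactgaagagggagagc
The window holds 1 CACGTG, whose first base lies 153 bases before the start. The same letters, which read alike on both strands, are found in 7.15% of 32851 such promoters. That share is not matched for base composition, and the motif itself holds a CG. The window has 70.7% GC and 32 CG, against medians of 52.7% and 7 over all promoters. The windows of Cebpa and Cebpb, the other factors with an entry in the promoter table, hold no CACGTG. A match of letters is a description and shows no binding.

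Of 19 tested E-box factors and clock genes, 5 rose and 6 fell, beside 10.1% and 10.2% of all genes tested. Their median log2 fold change was -0.28. Of the clock genes, looked up after their values were seen, Per3 (-1.04), Nr1d1 (-1.01), Nr1d2 (-0.99) and Arntl (-0.56) fell. Cry1 rose (1.08, all in log2 by edgeR), and Clock, Per1, Per2, Cry2 and Ciart did not pass. Tfec, a bHLH factor of the MiT family found in macrophages, averaged 38.2 CPM at day 12 and 9.01 CPM in steady state (adjusted p = 4.28e-05). Id2, an inhibitor of E proteins, had 196, 197, 259 and 203 CPM in day 12 replicates 1, 2, 3 and 4, against 78.9 to 103 CPM in steady state (adjusted p = 0.000567), and the E protein gene Tcf4 had 28.6 to 41.0 CPM at day 12, against 77.5 to 96.1 CPM in steady state (adjusted p = 0.00046). Without steady-state replicates 1, 2 and 3 the falling genes numbered 2, 3 and 2, and without steady-state replicate 2 the rising ones numbered 3.

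Since Bhlhe40 has been tied to division of these cells, cell cycle and self-renewal genes were examined. None of 26 tested passed edgeR's test, beside 20.3% of all genes tested. With DESeq2 and with limma-voom there were also 0 higher and 0 lower. There was 1 higher and 0 lower at an unadjusted p under 0.05, without day 12 replicate 4 or with the GC trend removed. Even so, 22 had a log2 fold change below 0 and the median was -0.73. The lowest p-values belonged to the inhibitor gene Cdkn1a, with 66.2 to 114 CPM at day 12 and 59.1 to 63.0 CPM in steady state (log2 fold change 0.46, adjusted p = 0.0987, but 0.27 and 0.0409 without day 12 replicate 4 and 0.40 and 0.0303 with the GC trend removed), and to the cyclin gene Ccnd1, with 13.2, 87.9, 5.89 and 71.6 CPM in day 12 replicates 1, 2, 3 and 4 and 218, 231 and 110 CPM in steady-state replicates 1, 2 and 3 (adjusted p = 0.149). Ccnd1 had a log2 fold change of -2.06 (SE 0.88, 95% interval -4.13 to 0.01).

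Maf, which encodes c-MAF (ENSMUSG00000055435, chromosome 8, 116409681 to 116434533), had 102, 105, 98.3 and 91.6 CPM in day 12 replicates 1, 2, 3 and 4, against 154, 195 and 244 CPM in steady-state replicates 1, 2 and 3. The day 12 libraries were close to each other, with a coefficient of variation of 5.97%, against 22.6% in steady state, and all lay below the steady-state libraries. The log2 fold change was -0.99 (SE 0.15, 95% interval -1.33 to -0.66, edgeR adjusted p = 0.00185), a level 1.99-fold lower at day 12. It lay between -1.12 and -0.82 when any library was left out, with the call kept each time.

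Of other genes of the MAF family and its partners, 0 of 8 tested genes rose by edgeR (2 at an unadjusted p under 0.05, 1 with DESeq2 and 0 with limma-voom) and 1 fell. Of all genes tested by edgeR, 10.1% rose and 10.2% fell. The falling gene was Bach2, a repressor that pairs with small MAF proteins, with 4.50 to 5.02 CPM at day 12, against 9.43 to 12.7 CPM in steady state (edgeR adjusted p = 0.000919). Nfe2, another partner of small MAF proteins, averaged 141 ± 8.30 CPM at day 12 and 115 ± 6.18 CPM in steady state (SD, n = 4 and n = 3) and did not pass (edgeR adjusted p = 0.0602). Without day 12 replicate 2, 3 or 4, 1 gene of this list rose.

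Genes known to be activated by MAF family factors in macrophages were lower for the most part. Of 18 tested, 10 fell, 3 rose and 5 did not pass, while 10.2% of all genes tested fell and 10.1% rose. The median log2 fold change was -1.1, beside 0.00 over all genes. Folr2, a folate receptor of resident macrophages, had 13, 14.3, 15.9 and 11.6 CPM in day 12 replicates 1, 2, 3 and 4, against 27.5, 35.2 and 35.9 CPM in steady-state replicates 1, 2 and 3 (edgeR adjusted p = 0.000519). The scavenger receptor gene Stab1 had 33.6 to 82.7 CPM at day 12, against 259 to 514 CPM in steady state, and the coagulation factor XIII gene F13a1 had 5.95 to 23.5 CPM, against 311 to 606 CPM. In each of these genes, named for their low p, steady-state replicate 1 was the lowest of its group, as it was for Maf. F13a1 was highest in steady-state replicate 2 (606 CPM), whereas Folr2, Stab1 and Maf were highest in replicate 3. The other genes of the list were not compared with Maf in this way. With 3 libraries in the group such orders coincide easily, and a tie of these genes to Maf was not tested. The rising genes numbered 1 without steady-state replicate 3, and the falling ones 12 without day 12 replicate 4. Over all fits with a single library left out, the falling genes numbered 7 to 12.

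Among other regulators of macrophage identity, 2 of 15 tested genes rose, 1 fell and 12 did not pass. Of all genes tested, 10.1% rose and 10.2% fell. Klf4, a zinc finger factor of monocytes and macrophages, rose to 535, 345, 585 and 420 CPM in day 12 replicates 1, 2, 3 and 4, against 70.4, 58.9 and 83.3 CPM in steady-state replicates 1, 2 and 3 (adjusted p = 9.11e-05). The nuclear receptor gene Nr4a1 averaged 18.4 CPM at day 12 and 11.3 CPM in steady state (adjusted p = 0.0117, but 0.0595 without steady-state replicate 3, when 1 gene of the list rose), and its relative Nr4a2 had 1.1 to 1.48 CPM, against 2.94 to 3.42 CPM (adjusted p = 0.00201). Without day 12 replicate 4, 3 genes of the list rose and 3 fell.

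**Figure D4:**
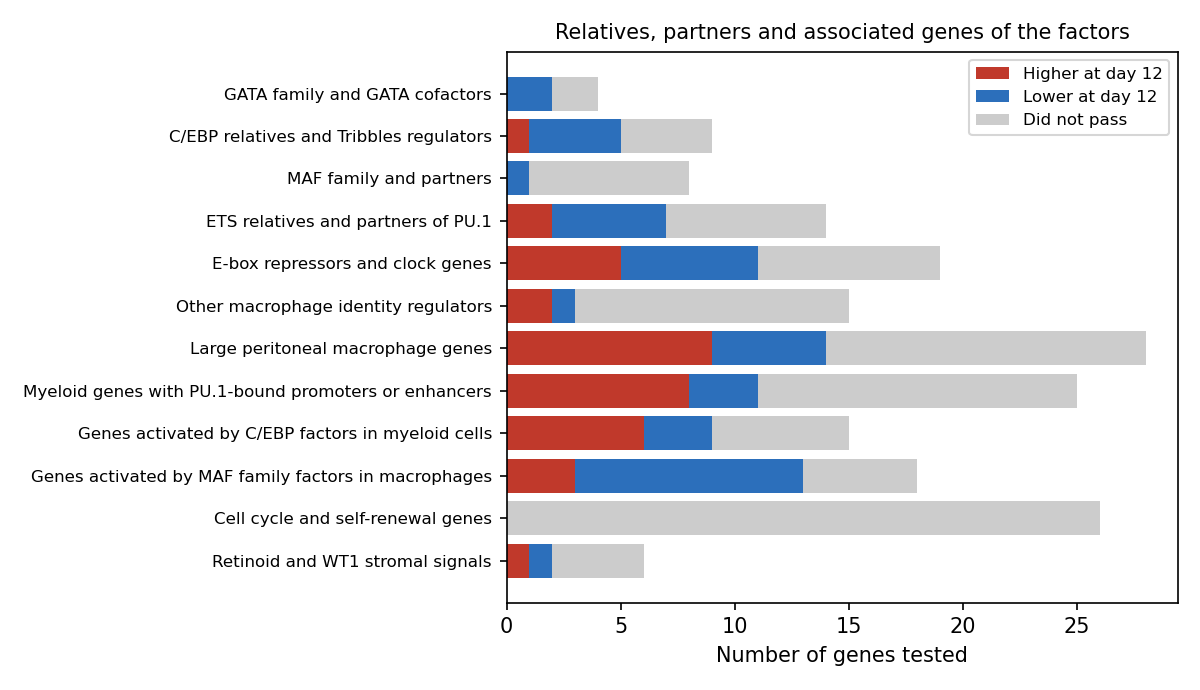
Number of tested genes (horizontal axis) in each list of relatives, partners and associated genes that were higher at day 12 (red), lower (blue) or did not pass edgeR's test (grey). The genes activated by MAF family factors hold 10 lower and 3 higher of 18, and the cell cycle list holds 26 that did not pass. Of all genes tested, 10.1% were higher and 10.2% lower.

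The genes whose centred log2 CPM profiles lay nearest to a factor's over the 7 libraries were sought among 9362 genes of at least 5 CPM. Hes1, another repressor of the bHLH class, was the nearest to Bhlhe40, with a root mean square difference of 0.091, and Tbc1d30 and Rai14 came next (0.1 and 0.106). Gpr183, a chemotactic receptor for oxysterols, was the nearest to Bhlhe41 (0.273), ahead of Igfbp4 (0.322) and Tgfbi (0.368). Cebpa lay nearest to Lyl1, a bHLH factor of blood cells (0.107), then to Paqr7 and Bcl9l (both 0.140). Maf lay nearest to Ehd4 (0.122), Ifnar1 (0.124) and Atosa (0.127), and Gata6 to Fhip2b (0.035), Ntng2 (0.042) and Rmc1 (0.044). The nearest to Spi1 were the lysosomal genes Glmp (0.049), Man2b2 (0.049) and Naglu (0.053), which like Spi1 were highest in day 12 replicate 4, with 318, 709 and 219 CPM. The libraries share their groups and the GC trend of that library, so that these differences describe the profiles only.

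**Figure D5:**
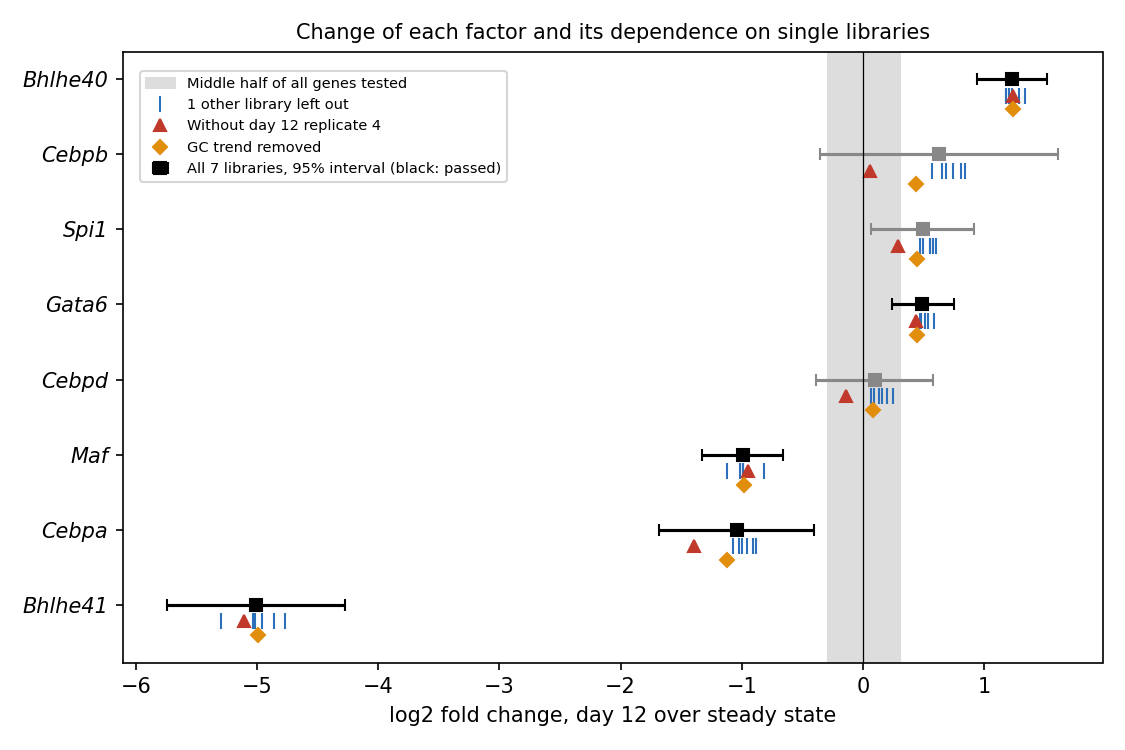
log2 fold change of day 12 over steady state (horizontal axis) for 8 factors from all 7 libraries with 95% interval (squares, black where the call passed), with single libraries left out (blue ticks, red triangle for day 12 replicate 4) and with the GC trend removed (orange diamonds), over a band between the quartiles of all genes tested, -0.28 and 0.30. Without day 12 replicate 4, Cebpb moves to 0.06 and Cebpa to -1.39, while Bhlhe40, Bhlhe41, Gata6 and Maf stay near their values.

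Markers of other cell types were summed in each library as well. Summed levels at day 12 and in steady state were 24.5 to 54.0 CPM, against 7.37 to 11.2 CPM, for 12 B cell markers, and 158 to 437 CPM, against 88.2 to 126 CPM, for 12 dendritic cell markers. Of the 12 B cell markers tested, 6 rose and 6 did not pass. Of the 6 dendritic cell markers tested, 1 rose and 5 did not pass, while 10.1% of all genes tested rose. For 12 neutrophil markers the summed levels were 111 to 201 CPM, against 453 to 473 CPM, with Ly6g and Mpo at 0 reads. Nearly all of that sum was Csf3r, described above among the PU.1-bound genes, and without it the sum was 1.99 to 4.93 CPM at day 12, against 22.5 to 30.2 CPM in steady state. Of the 5 neutrophil markers tested, 3 fell, beside 10.2% of all genes tested. The falling markers were Csf3r and the metalloproteinase genes Mmp8 and Mmp9. Mmp8 had 2, 2, 2 and 1 reads in day 12 replicates 1, 2, 3 and 4, below the floor of 3 counts. In steady-state replicates 1, 2 and 3 it had 25, 41 and 41 reads, which alone carried it past the filter on low counts. The size of its fall is therefore not resolved. Mmp9 had 8, 61, 13 and 52 reads at day 12, against 699, 715 and 862 in steady state. The 12 epithelial markers summed to 4.20 to 6.00 CPM at day 12, against 1.96 to 2.52 CPM in steady state, with 5 of them at 0 reads, the 13 T and NK cell markers to 1.11 to 4.83 CPM, against 0.588 to 1.22 CPM, and the 14 eosinophil and mast cell markers to 1.66 to 3.24 CPM, against 1.82 to 1.88 CPM. The 15 markers of monocytes and small peritoneal macrophages summed to 9650 to 52002 CPM at day 12, against 449 to 496 CPM in steady state, most of the day 12 sum being the chitinase-like gene Chil3 (7622 to 41778 CPM, against 0.682 to 2.43 CPM). Of the 13 tested, 5 rose, 2 fell and 6 did not pass, while 10.1% of all genes tested rose and 10.2% fell. The median log2 fold change was 0.22, beside 0.00 over all genes. Folr2, given above among the genes activated by MAF family factors, had the lowest p of the list and fell, as did Ccr2, a chemokine receptor gene of recruited monocytes chosen after its values were seen (3.97 to 8.14 CPM, against 10.3 to 12.6 CPM, edgeR adjusted p = 0.0114, but 0.0523 without steady-state replicate 2), while Retnla, a resistin-like gene, rose to 1172 to 9449 CPM, against 88.5 to 115 CPM (adjusted p = 0.00464). Their part in the levels of the factors was not tested.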

How the data were processed

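The authors deposited raw read counts per gene for 7 libraries of poly-A RNA, with no normalisation and with GRCm39 coordinates. Per the labels' protocols, 30 ng of RNA went into directional libraries (NEBNext Ultra II Directional) read as 100-nt single reads. The submitters' processing notes name DESeq2 1.40.2, featureCounts with Subread 2.0.6, STAR 2.7.11a, SAMtools 1.10 and FastQC. No source used here gives the strand setting, the annotation release or how reads with several places were treated. Sample titles set the groups and the replicate numbers. The protocol speaks of biological replicates, and the p-values reflect how far these libraries differ from each other.

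Genes entered by filterByExpr (minimum count 10, minimum total 15) and were tested by robust quasi-likelihood in edgeR 4.0.16 (R 4.3.3) with TMM factors and Benjamini-Hochberg adjustment at 0.05. DESeq2 1.42.0, limma-voom (limma 3.58.1), other factors and filters, each library left out and a replicate block were alternatives. A fit with offsets that remove each library's lowess trend with transcript GC content (GENCODE M21, 97.8% of tested genes with a value) was chosen after seeing the data. Standard errors were derived from F statistics. Ratios used CPM + 0.5. The floor of 3 counts covers counting error only. The members and the 22 gene lists were chosen with earlier results of these data known. Named genes were the factors and their overlapping genes, the sort markers, up to 3 genes of a list by lowest p and the 3 nearest profiles. The nearest profiles of Cebpb and Cebpd and overlapping transcripts of few reads are not described. Promoter sequence came from RefSeq on GRCm38.p6, in which 3 of the 9 factors had an entry. The fit was tested on simulated data. Of the 5 ratios tested 4 are given, and some items are not reported here.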

Additional observations from a re-analysis of the deposited data

Results flagged for a closer look

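With 4 libraries in a group, chance marks about 1 in 20 independent results as having a value far from the others, and 18 of 87 results checked at day 12 had one. The results checked are not independent, so these rates cannot be compared. Glmp, Man2b2 and Naglu were chosen for their likeness to Spi1, ratios reuse single genes, and many genes share the GC trend of replicate 4. Day 12 replicate 4 held the value far from the other libraries for Cebpb (1072 CPM, others 328 to 419 CPM), Spi1 (402 CPM, others 233 to 253 CPM), the Cebpd to Cebpb log2 ratio (-4.66, others -3.95 to -3.85), Csf2rb (653 CPM, others 483 to 502 CPM), Nr4a1 (21.7 CPM, others 16.9 to 17.6 CPM), Glmp (318 CPM, others 194 to 208 CPM), Man2b2 (709 CPM, others 420 to 469 CPM), Naglu (219 CPM, others 126 to 135 CPM) and Il6, where it was the lowest (13.1 CPM, others 21.7 to 22.7 CPM). Transcripts of these genes have 53.9% to 67.2% GC except Glmp with 52.7%, Cebpd with 51.6% and Il6 with 39.3%.

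Day 12 replicate 2 held it for Trib2 (1.28 CPM, others 0.371 to 0.421 CPM), Ccr2 (8.14 CPM, others 3.97 to 4.64 CPM), Elf4 (143 CPM, others 162 to 165 CPM), Rmc1 (40.5 CPM, others 49.3 to 51.1 CPM), Ehd4 (79.5 CPM, others 64.2 to 65.3 CPM), the summed B cell markers (54.0 CPM, others 24.5 to 25.5 CPM) and the summed eosinophil and mast cell markers (3.24 CPM, others 1.66 to 1.83 CPM). Day 12 replicate 3 held it for Id2 (259 CPM, others 196 to 203 CPM) and replicate 1 for Nr4a2 (1.48 CPM, others 1.1 to 1.16 CPM).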

How the results depend on the processing

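Of 128 log2 fold changes of the factors under alternatives, 113 kept their direction and their side of the threshold, 10 lost a call (Gata6 and Cebpa), 3 gained one (Spi1) and 2 turned round (Cebpd, with a range of -0.14 to 0.25 when single libraries were left out and -0.15 with a replicate block, neither called). With single libraries left out, 1761 to 4599 genes were called in place of 3242, and 1 to 3 factors rose in place of 2. The 3242 calls became 1868, 1804 and 1761 without steady-state replicates 1, 2 and 3, where fewer samples enter. The difference in the Gata6 to Spi1 log2 ratio, 0.02, ranged from -0.07 to 0.15, being -0.03 without steady-state replicate 3 and -0.07 and -0.04 without day 12 replicates 1 and 3. The difference in the eosinophil and mast cell sum, 0.277 CPM, ranged from -0.0926 to 0.436 CPM, the lowest without day 12 replicate 2. DESeq2 called 3981 genes and the fit with the GC trend removed 4632, with 3 factors higher and 3 lower. The large peritoneal macrophage list had 8 falling genes with DESeq2 or with the GC trend removed, against 5. Among other regulators 3 genes fell with the GC trend removed, against 1, and in the MAF family 1 rose with upper-quartile factors, with library totals, with DESeq2, with a filter of 1 CPM and with the GC trend removed, against 0. Of the GATA list 1 rose with DESeq2 or with no filter on low counts, against 0, and both of these fits take in genes that the filter leaves out. Of the bZIP relatives 2 rose with DESeq2 or without day 12 replicate 1, against 1. The cause of these shifts was not tested. Same-numbered libraries of the groups deviated together only weakly (r = 0.0552, 0.0931 and 0.142), so the numbers were not taken to pair them. With the replicate number as a block, 4278 genes were called, 3 factors rose (Spi1 with 0.29, adjusted p = 0.0286), 3 fell, 11 genes of the large peritoneal macrophage list fell, 3 of the other regulators fell, 1 of the GATA list fell, against 2, since Lmo2 had -1.54 (SE 0.41, adjusted p = 0.0921) in place of -1.40 (adjusted p = 0.00514), and 1 of the MAF family rose, Nfe2 with 0.29 (adjusted p = 0.0224). With 4 and 3 libraries, the intervals of Cebpb, Cebpd and Spi1 span changes as large as those called for Gata6, so that no call does not show that their levels were alike.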
